A study of Arabidopsis thaliana with 12 samples.

Results

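The genes described here are 10 Arabidopsis thaliana genes of abscisic acid synthesis and signalling, of 27444 protein-coding genes on the nuclear chromosomes, followed across 6 chromatin immunoprecipitation sequencing libraries of MAC3A. They were chosen by locus: the synthesis genes NCED3, NCED5 and NCED9, the receptor gene PYL4, the phosphatase genes ABI1, ABI2, HAB1 and HAI1, and the transcription factor genes ABI5 and ABF3. MAC3A is a U-box protein of the MOS4-associated complex, which corresponds to the Prp19 complex of the spliceosome in other organisms. The series title names it with cryptochromes, which sense blue light, and with HY5, a bZIP factor of light-grown development. For each gene, every MAC3A summit in the body or within 1 kb of either end was listed. The dark group and the blue-light group each held 3 MAC3A libraries, from whole seedlings of genotype Columbia-4 grown for 6 days. The lines of the MAC3A libraries carried MAC3A fused to GFP, per the growth notes, under a promoter not given in the sources used here. The same notes name a line with GFP alone as the control, while the titles call the 6 control samples input, and the antibody is listed as anti-FLAG. The growth notes give blue light for all samples, so a library's condition rests on its title.

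Abscisic acid is the plant hormone of drought, salt stress and seed dormancy. It is made from plastid carotenoids, which the NCED enzymes cleave in the rate-limiting step, and it is inactivated by the CYP707A hydroxylases. Bound to a receptor of the PYR/PYL family it blocks the clade A phosphatases, which frees SnRK2 kinases to phosphorylate transcription factors such as ABI5 and ABF3. ABI5 is also known as a direct target of HY5, the light-signalling factor named in the series title.

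Peak numbers were 1285, 1225 and 1169 for dark libraries and 1505, 1820 and 1578 for blue ones. Several peaks carry more than 1 summit, so that the lists gave 1342 to 1464 summits in the dark and 1725 to 2139 in blue light. Read totals were not used here. The smallest −log10 q was 2.02, 2.02 and 2 in the dark lists and 2 in each blue list, so a gene without a summit is one where the authors' caller listed none at that level, which does not show that MAC3A was absent. In the submitters' codes dark replicates 2 and 3 bear an identical replicate mark. Each gene is therefore described library by library. Nothing in the labels says that replicates came from separate cultures, and p values measure only the spread between these libraries.

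MAC3A was found at 3 of the 10 genes and not at the other 7. NCED3 had a summit in all 6 libraries, as did 2.7% of all protein-coding genes, ABI1 in 2 dark and 3 blue libraries, and HAB1 in 2 blue libraries only. With a gene counted as bound where at least 2 of the 3 libraries of a condition had a summit, 2 of 10 members were bound in the dark and 3 of 10 in blue light. NCED3 and ABI1 were bound in both. Among all protein-coding genes the shares were 5.62% in the dark, 7.37% in blue light and 4.16% in both. The median member had a summit in 0 of 6 libraries, and 13.7% of all protein-coding genes had one in any library. A single gene moves the share of the 10 members by more than either background share, and no test was made because the members were chosen with earlier results known.

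**Figure D1:**
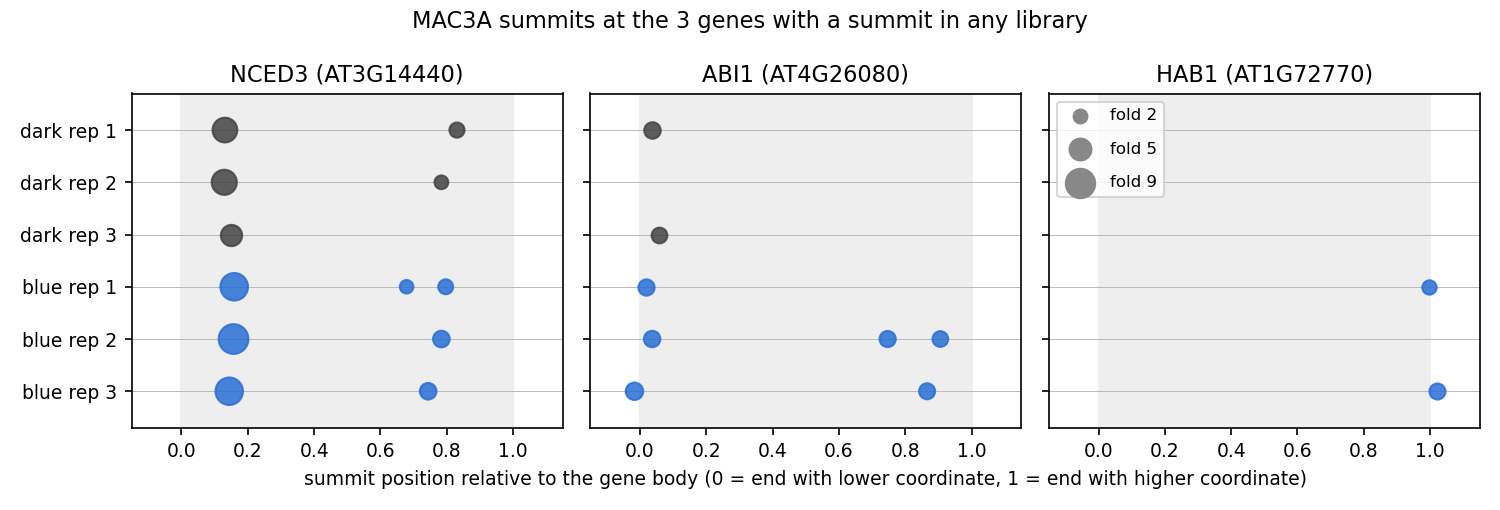
Position of each MAC3A summit (horizontal axis, relative to the gene body, shaded) in each of 6 libraries (rows, dark in grey and blue light in blue) at NCED3, ABI1 and HAB1, with the marker area proportional to the fold enrichment. NCED3 has a large marker near its lower-coordinate end in all 6 rows and smaller ones toward the other end in 5, ABI1 has a second site in blue replicates 2 and 3, and HAB1 has single summits at its higher-coordinate end in blue replicates 1 and 3.

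NCED3 (AT3G14440), the main NCED gene of stress-induced abscisic acid synthesis, carried the strongest MAC3A signal of the 10 genes. Its main summit lay inside the gene body on chromosome 3, at positions 4831643, 4831637 and 4831696 in the dark, against 4831719, 4831714 and 4831680 in blue light (TAIR10, counted from 1, as are all positions here). On a scale from 0 at the end with the lower coordinate to 1 at the other end, these were 0.129 to 0.159 of the gene. The gene table used here gives no strand, so gene ends are named by coordinate. The mean summit lay 45.7 bp higher in blue light than in the dark, and the groups overlapped (exact permutation test, two-sided, p = 0.2, with n = 3 libraries each). The smallest p that 3 libraries against 3 can reach is 0.1.

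The NCED3 peak was wider in blue light. It spanned 694, 720 and 633 bp in the dark, against 1097, 1035 and 988 bp in blue light, and every blue peak was wider than every dark peak. The means were 682.3 ± 44.7 bp and 1040.0 ± 54.7 bp (SD, n = 3 each), a difference of 358 bp (exact permutation test, two-sided, p = 0.1, the smallest this design allows). This test and that of the summit position were chosen with earlier results of these data known. The lower-coordinate border hardly moved, at 4831344, 4831383 and 4831353 in the dark, against 4831324, 4831333 and 4831323 in blue light. The other border lay at 4832037, 4832102 and 4831985 in the dark, against 4832420, 4832367 and 4832310 in blue light, so most of the added length lay toward the middle of the gene. Among the 740 protein-coding genes with a summit in all 6 libraries, every blue peak was wider than every dark peak at 17.3% and narrower at 6.22%, and the median difference was 33.3 bp. The local background at NCED3 also differed between the conditions, as given below, and whether the called width followed it was not tested.

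A weaker second site lay toward the other end of NCED3. It had summits at 4833553 in dark replicate 1, 4833426 in dark replicate 2, 4833139 and 4833460 in blue replicate 1, 4833426 in blue replicate 2 and 4833316 in blue replicate 3. Dark replicate 3 had none. The fold enrichment there was 2.4 and 1.98 in the dark libraries and 2.32, 2.91 and 2.88 at the strongest summit of each blue library. The dark peaks, of 232 and 215 bp, ranked at 1194 of 1464 and 1367 of 1373 summits of their lists. The blue peaks measured 718, 590 and 567 bp, and their strongest summits ranked at 1043 of 1725, 431 of 2139 and 387 of 1828. The second site was thus in the lower part of the lists of dark replicates 1 and 2 and of blue replicate 1. It was in the upper part of the lists of blue replicates 2 and 3. As percentages of list length, the ranks were 81.6 and 99.6 in the dark, against 60.5, 20.1 and 21.2 in blue light. These values did not overlap, but dark replicate 3 had none, and the share of genes with such an order was not taken. A rank also depends on the other summits of its list, and a change was not tested.

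Fold enrichment at the main NCED3 summit was 6.4, 6.61 and 4.73 for dark libraries and 7.96, 9.28 and 7.91 for blue ones. These are the authors' values, over the background their caller assigned to each peak. All blue values lay above all dark values, which was so at 3.92% of the 740 genes with a summit in all 6 libraries, while at 39.3% of them all blue values lay below all dark values. The summit ranked at 73, 74 and 101 among dark summits and at 34, 30 and 38 among blue ones. Across the 740 genes the median ratio of blue to dark fold was 0.831, and that of NCED3, at 1.42, was the 11th highest.

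That order of the folds at NCED3 came with a different background in the 2 conditions. Under the caller's formulas, in which the fold is pileup plus 1 over background plus 1 and the p value is a Poisson tail, fold and p together give the pileup and the background at each summit. The implied pileup at the main NCED3 summit was 87.4, 78.4 and 83.9 in the dark, against 85.6, 110 and 92.2 in blue light. The implied background was 12.8, 11 and 16.9 in the dark, against 9.88, 10.9 and 10.8 in blue light. The background of most summits in a list, taken as that of the genome, was 5.99, 5.78 and 5.9 in the dark, against 8.63, 9.31 and 8.81 in blue light. NCED3 thus stood at 2.14, 1.91 and 2.87 times the genome background in the dark, against 1.14, 1.18 and 1.22 times in blue light. The values did not overlap, with the blue ones lower, which held at 14.6% of the 740 genes. The blue to dark ratio of 0.512 was the 10th lowest of these genes.

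Set against the genome background of its own library, the NCED3 pileup had the opposite order. It was 14.6, 13.6 and 14.2 times that background in the dark, against 9.91, 11.8 and 10.5 times in blue light. The means were 14.1 ± 0.517 and 10.7 ± 0.968 (SD, n = 3 each), a ratio of 0.759. Lower values in every blue library were found at 65% of the 740 genes and higher values in every blue library at 0.946%. Their median ratio was 0.763, and NCED3 lay close to the median by this measure. The measure was chosen after the values were seen and is given without a test. On simulated summits of this kind, with assumed backgrounds, the median error of a solved pileup was 3.25% to 3.77%. The median error of the background at single summits was 3.47% to 4.24%. At the 95th percentile the error was 9.49% to 17% for the pileup and 10.1% to 18.6% for the background. The background solved for a whole list was off by 1.47% to 8.47%. The simulation computed fold and p by the same formulas, so it cannot show that these hold for the deposited lists.

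**Figure D2:**
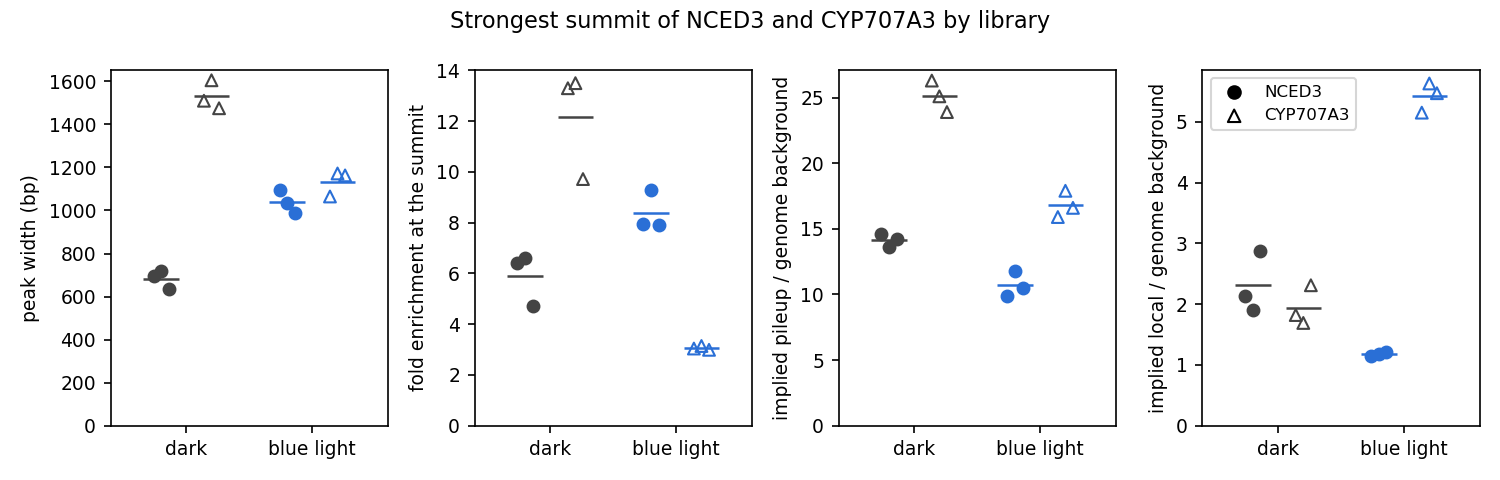
Strongest summit of NCED3 (filled circles) and CYP707A3 (open triangles) in each dark and blue-light library, 3 per condition with the mean as a bar. The panels show peak width in bp, the authors' fold enrichment, the implied pileup over the genome background, and the implied local over genome background. Fold moves in opposite directions at the 2 genes (means 5.91 to 8.38 and 12.2 to 3.06), while pileup over the genome background is lower in blue light at both.

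The other NCED genes had no summit within 1 kb in any library. NCED5 (AT1G30100) and NCED9 (AT1G78390) encode the same kind of enzyme, and NCED9 is known for its part in seeds. The nearest summit to NCED5 was 8.04 kb away in dark replicate 1, at NUDX25 (AT1G30110), and 8.07 and 8.09 kb away in blue replicates 1 and 3. In the remaining libraries it was 32.7 to 33 kb away, at the gibberellin-inactivating gene GA2OX2 (AT1G30040). For NCED9 the nearest summit was 19.7 to 19.8 kb away in every library, at ATGA2OX1 (AT1G78440), with folds from 3.02 to 6.02. Within the NCED genes of the list, MAC3A peaks were thus listed at NCED3 and at no other.

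The receptor gene PYL4 (AT2G38310) had no summit within 1 kb in any library. The nearest lay 42.7 kb away in dark replicates 1 and 3. In the other libraries it was 57.1 to 57.4 kb away, at the transcription factor gene WRKY33 (AT2G38470).

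Among the 4 phosphatase genes, which encode the enzymes that hold the pathway off without the hormone, ABI1 and HAB1 had summits and ABI2 and HAI1 had none. At ABI1 (AT4G26080) the first site lay at the end with the lower coordinate on chromosome 4. Its summits were at 13220001 and 13220053 in dark replicates 1 and 3 and at 13219957, 13220005 and 13219874 in blue replicates 1, 2 and 3. They were in the body except that of blue replicate 3, which lay just outside it. This site sits between ABI1 and the MAP kinase kinase gene MEK1 (AT4G26070), which also had these summits within 1 kb and held that of blue replicate 3 in its body. The peaks therefore cannot be given to ABI1 alone.

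The first ABI1 site had low folds and narrow peaks. It had folds of 2.85 and 2.59 in the dark libraries and 2.76, 2.83 and 3.18 in the blue libraries. The peaks were 290 and 235 bp wide in the dark, against 283, 318 and 204 bp in blue light. Values of the conditions overlapped in both respects, and dark replicate 2 listed no summit nearer than 55.9 kb. The −log10 q values ran from 3 to 5.64. A second site toward the other end of ABI1 was listed in blue replicate 2, with summits at 13221753 and 13222144, and in blue replicate 3, with a summit at 13222045, at folds of 2.75, 2.59 and 2.69. The peak of blue replicate 2 there was 655 bp wide, above its list's median of 346 bp, and that of blue replicate 3 was 292 bp wide. No dark library and not blue replicate 1 had that site. Only NCED3 kept its place among the members with summits of −log10 q of at least 5, or fold of at least 3, in at least 2 libraries of a condition, and in either dark pair with dark replicate 2 the bound members fell from 2 to 1.

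HAB1 (AT1G72770), a close relative of ABI1, had summits on chromosome 1 at 27393317 in blue replicate 1 and at 27393388 in blue replicate 3. The folds were 2.15 and 2.69, the −log10 q values 2.29 and 3.99, and the widths 221 and 235 bp. They ranked at 1589 of 1725 and 1053 of 1828 summits, near the end of the first list and in the middle part of the other. The second of them fell in the body of a tRNA gene, AT1G72780, annotated as a serine tRNA, and the first within 1 kb of it. The tRNA gene and HAB1 share the site. A summit in at least 2 blue and no dark libraries was found at 2.28% of all protein-coding genes. In lists of equal length HAB1 kept a summit in 1 blue library, and it had none at a fold of at least 3. In dark libraries the nearest summit lay 37.4 to 37.5 kb away.

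ABI2 (AT5G57050), the closest paralogue of ABI1, had its nearest summit 58.7 to 59.1 kb away in the dark. In blue light it was 9.54, 10.1 and 59.4 kb away. HAI1 (AT5G59220), a phosphatase gene induced by abscisic acid, had none nearer than 44.8 kb in any library. The 4 phosphatase genes thus ranged from 5 libraries at ABI1 to none at ABI2 and HAI1.

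Neither transcription factor gene had a summit. ABI5 (AT2G36270), a bZIP factor that arrests growth after germination, had its nearest summit 99.6 to 99.7 kb away in the dark, against 21.2, 21.2 and 35.1 kb away in blue light. ABF3 (AT4G34000), a bZIP factor of the drought response, had one 5.82 kb away in blue replicates 1 and 3 and 5.86 kb away in dark replicate 3, at genes that include MCCB (AT4G34030). In the other libraries it was 12.8 kb away (blue replicate 2), 57 kb (dark replicate 1) and 56.8 kb (dark replicate 2). These were the summits closest to any of the 7 genes without one. On the inner side of the 1 kb limit, the member summit farthest outside a body was that of HAB1 in blue replicate 3, at 0.061 kb.

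**Figure D3:**
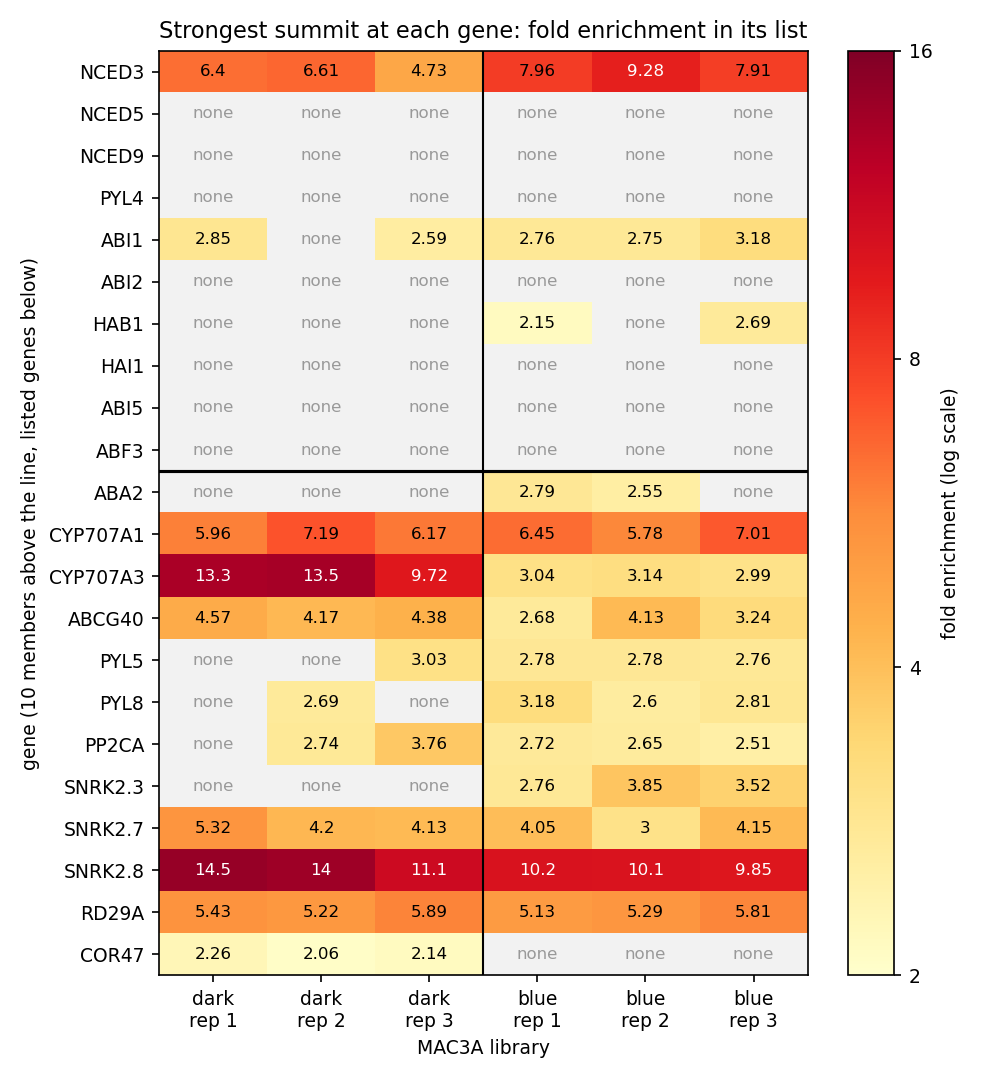
Fold enrichment of the strongest summit at each gene (rows) in each MAC3A library (columns), on a log colour scale, with the authors' value printed and none where the list holds no summit. The 10 members are above the line and the 12 other abscisic acid genes bound in at least 1 condition below it. NCED3 is filled in all 6 columns, ABI1 in 5 and HAB1 in 2, and the remaining members are empty.

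The rest of the pathway was followed in 65 other abscisic acid genes, a list also drawn up with earlier results of these data known. MAC3A was bound at 8 of them in the dark (12.3%) and at 11 in blue light (16.9%), 7 of them in both, and 49 had no summit in any library. The background shares were 5.62% and 7.37%. The list's median was 0 libraries, as for the members. By role, 2 of 5 breakdown and storage genes and 1 of 3 transport genes were bound in both conditions. Of 10 kinase genes, 2 were bound in the dark and 3 in blue light, and of 13 other receptor genes none in the dark and 2 in blue light. None of the 9 other transcription factor genes was bound in either condition, although AREB3 had a summit in 1 blue library. Of 7 other synthesis genes, none was bound in the dark and 1 in blue light. The other phosphatase genes had 1 of 5 bound in each condition, and the responsive genes 2 of 13 in the dark and 1 of 13 in blue light.

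Among the genes of hormone breakdown, CYP707A1 and CYP707A3 had summits in all 6 libraries. CYP707A1 (AT4G19230), a hydroxylase that inactivates abscisic acid, had its main summit in the gene body between 10522140 and 10522167 on chromosome 4 in all 6 libraries. Its folds were 5.96, 7.19 and 6.17 in the dark, against 6.45, 5.78 and 7.01 in blue light, values that overlapped. CYP707A3 (AT5G45340), another of these hydroxylases, had its main summit between 18370246 and 18370261 on chromosome 5. Its folds were 13.3, 13.5 and 9.72 in the dark, against 3.04, 3.14 and 2.99 in blue light, with no overlap. Lower folds in every blue list were found at 39.3% of the 740 genes with a summit in all 6 libraries. The blue to dark ratio of 0.251 was the lowest of these genes.

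At CYP707A3, too, the folds came with a different background. The implied background was 10.9, 9.78 and 13.6 in the dark, against 44.4, 52.4 and 48.2 in blue light. It stood at 1.94 ± 0.327 times the genome background in the dark and 5.42 ± 0.247 times in blue light (SD, n = 3 each). It was higher in every blue library, which held at 12.7% of the 740 genes. Its blue to dark ratio of 2.79 was the 2nd highest of these genes. The implied pileup itself was 157, 145 and 141 in the dark, against 137, 167 and 146 in blue light, which overlapped. Over the genome background the pileup had a blue to dark ratio of 0.669, against 0.759 at NCED3, and both lay between 0.631 and 0.944, the range of the middle 80% of the 740 genes. The folds of NCED3 and CYP707A3 thus moved in opposite directions, and their pileups over the genome background moved in the same direction. CYP707A1, the other bound breakdown gene, had a blue to dark fold ratio of 0.995, with overlapping folds. Whether the background itself came from the control libraries was not tested. The CYP707A3 peak measured 1510, 1605 and 1475 bp in the dark, against 1065, 1172 and 1163 bp in blue light. It was thus narrower in every blue library, which held at 6.22% of the 740 genes. Whether peak width followed the background was not tested.

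**Figure D4:**
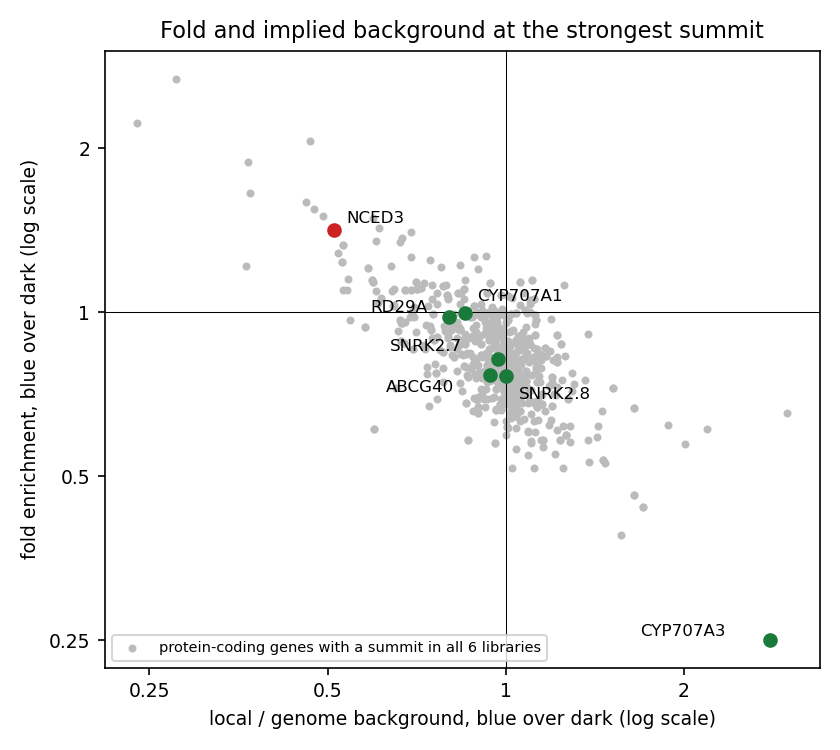
Ratio of blue to dark fold enrichment (vertical) against the ratio of blue to dark local background, each relative to its genome background (horizontal), both on log scales, for 740 protein-coding genes with a summit in all 6 libraries (grey), NCED3 (red) and 6 other abscisic acid genes (green). NCED3 is at 0.512 and 1.42 and CYP707A3 at 2.79 and 0.251, in opposite directions on both axes, and other genes lie farther out than NCED3. The background enters the fold, so the 2 axes are not independent.

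Other abscisic acid genes in all 6 libraries were ABCG40, SNRK2.7, SNRK2.8 and RD29A. SNRK2.8 (AT1G78290), a kinase gene, had the highest blue folds of all the genes listed, with 14.5, 14 and 11.1 in the dark, against 10.2, 10.1 and 9.85 in blue light. Its summits lay between 29458963 and 29458986 on chromosome 1, and its local background stayed at 0.991 to 1.11 times that of the genome. ABCG40 (AT1G15520), an importer of the hormone, had folds of 4.57, 4.17 and 4.38 in the dark, against 2.68, 4.13 and 3.24 in blue light. RD29A (AT5G52310), a classic reporter of abscisic acid and drought responses, had a main summit with folds of 5.22 to 5.89 in the dark and 5.13 to 5.81 in blue light. The summits of SNRK2.7 (AT4G40010) lay outside its body in all 6 libraries and within 1 kb of its neighbour AT4G40000, with folds of 3 to 5.32. As at NCED3, every blue peak was wider than every dark peak at SNRK2.8 (means 940 and 856 bp) and CYP707A1 (1322 and 1029 bp). This order held at 17.3% of the 740 genes. Peak widths of the conditions overlapped at ABCG40, SNRK2.7 and RD29A.

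A few genes of the list were bound in 1 condition only under the 2-library rule. COR47 (AT1G20440), a dehydrin gene of cold and drought, had summits in all 3 dark libraries but in no blue one, with folds of 2.26, 2.06 and 2.14 over a local background of 5.89 to 6.02 times that of the genome. A summit in at least 2 dark and no blue libraries was found at 0.969% of all protein-coding genes. SNRK2.3 (AT5G66880), a kinase gene among those that carry the main hormone signal, had summits beside the gene in each of the 3 blue libraries but in no dark one, with folds of 2.76, 3.85 and 3.52. These summits also lay within 1 kb of AT5G09785, a long non-coding RNA gene. Summits in all 3 blue and no dark libraries were found at 1.14% of all protein-coding genes. The receptor genes PYL5 (AT5G05440) and PYL8 (AT5G53160) had summits in 3 blue libraries and 1 dark library each. At each gene the dark summit lay at the end opposite the site common to all 3 blue libraries. Blue replicates 2 and 3 also had summits at the end of the dark one. The common blue site of PYL8 also lay within 1 kb of FTSH11 (AT5G53170). PYL5 had a summit in its body in 1 blue library only, and no PYL5 summit reached a −log10 q of 5. ABA2 (AT1G52340), a dehydrogenase gene of synthesis, was counted in blue light through summits at opposite ends of the gene, at 19489317 in blue replicate 1 and 19491833 in blue replicate 2, each in the body of a neighbouring gene. The phosphatase gene PP2CA (AT3G11410) was likewise counted in the dark through summits at opposite ends, at 3583789 and 3586009, and in blue light through all 3 libraries.

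Summits near both ends of the same gene recurred among the abscisic acid genes. Summits in both outer parts of a gene, each 33.3% of its length with its flank, were seen at NCED3 in 5 of 6 libraries and at ABI1 in blue replicates 2 and 3. Among the other genes RD29A had them in 5 libraries, PP2CA in 3 blue libraries, and PYL5 and PYL8 in blue replicates 2 and 3. Of all protein-coding genes with a summit, 3.14% to 4.19% had this layout in dark libraries, and 6.07% to 6.86% in blue ones. The layout was chosen after the values were seen and is given as a description.

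By the ranks of their strongest summits in the 6 lists, the protein-coding genes nearest to NCED3 were OMT1 (AT5G54160), AT1G76590 and AT1G18975. Their ranks, as percentages of each list, differed from those of NCED3 by 0.925, 0.986 and 0.989 points on average, among 739 genes compared over 6 libraries.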

How the data were processed

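MAC3A ChIP-seq peak lists of 6 libraries were used as deposited. The submitters' processing notes name MACS2 2.1.1 among tools that include Bowtie2, ChIPseeker and SAMtools, and the build TAIR10. Order, parameters and the control behind each list are not stated there. The authors' lists give, per summit, a fold (ratio) over local background and the −log10 of p and of q. The deposited score column was not used.

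Summits were assigned to a gene by position (body plus 1 kb on each side) from a RefSeq table without strand, in which all 10 member and 65 other identifiers were found. As a check of the assemblies, 79.1% of summits lay in gene bodies unshifted and 63.8% to 72.5% after shifts of 500 to 5000 bp either way. Pileup and background were solved from fold and p, and the solving was tested on data simulated with the same formulas. Exact permutation tests were over the 6 libraries. Scripts ran under Python 3.11.15 with SciPy 1.17.1. The members, the list of 65 other genes and the tests were chosen with earlier results of these data known. Named genes were all members, genes at their summits, listed genes bound in a condition and the 3 genes nearest to NCED3 in rank. AREB3, ABCG25, NUDX25, GA2OX2, ATGA2OX1, WRKY33, MCCB, AT4G40000, AT5G09785 and FTSH11 were added after their values were seen. Alternatives changed the q or fold limit, list length, window, libraries required and libraries included. Control samples and DNA sequence were not analysed here.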

Additional observations from a re-analysis of the deposited data

How the results depend on the processing

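In the dark 2 members were bound as reported and 1, NCED3, with −log10 q limited to 5 or more, with fold limited to 3 or more and with all 3 libraries required; leaving out a dark library gave 1 to 2. In blue light 3 were bound as reported, 1 at either limit, and 2 to 3 without a library. Of the other abscisic acid genes, 11 were bound in blue light as reported, 7 at each of these limits and with gene bodies only, and 10 to 11 without a library. In the dark 8 were bound as reported, 13 with 3 kb at either end and 7 to 8 without a library. Among all protein-coding genes the shares in the dark and in blue light were 3.06% and 3.6% under the q limit and 9.52% and 11.9% with 3 kb at either end. With gene bodies only they were 3.14% and 3.72%, and with all 3 libraries required 3.7% and 5.1%. Under the fold limit they were 3.95% and 3.24%, so that the dark share was the higher there. Without a library they ran from 4.23% to 4.42% in the dark and from 5.56% to 6.07% in blue light. Where 1 library was enough they were 8.72% in the dark and 11.2% in blue light. The remaining alternatives stayed within 1.5 times the counts reported.

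The NCED3 width difference was 329 to 384 bp and its summit shift 34.8 to 64.3 bp without a library. Between dark and blue libraries of equal replicate number, fold deviations at 740 genes correlated at -0.03, 0.02 and -0.02. Such values cannot show whether libraries shared a culture, which the labels do not give. With a replicate block the differences of 358 and 45.7 bp had p = 0.25 and 0.5 by an exact sign-flip test, whose smallest p is 0.25. Of 138 blue minus dark differences in library number at single genes (23 genes, 6 settings), 98 were unchanged, 35 moved and 5 turned. The turned ones were ABCG25, at -2 with 3 kb flanks and with peak intervals, PYL5, at -1 under the fold limit, and PP2CA, at -1 at either limit; the cause was not tested. Read depth was not used here, and what it limits was not tested.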
